A study of Mus musculus with 58 samples.

Results

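Lung RNA of Muta™Mouse males given IP at 25 mg/kg-bw/day was compared with lung RNA of males given the vehicle, over every probe of the array. The comparison uses 10 of the 58 arrays of the series, which were chosen by their labels alone (tissue lung, dose groups D0 and D2). IP is indeno(123,cd)pyrene, a polycyclic aromatic hydrocarbon that forms when organic matter burns incompletely, and Muta™Mouse is a transgenic strain that carries a bacterial lacZ reporter for mutations. All mice were about 13 weeks old, received olive oil by gavage each day for 28 days, and were killed 72 h after the last dose. In the 5 vehicle mice (1 to 5) the oil held nothing else, and in the 5 dosed mice (11 to 15) it held IP at 25 mg/kg-bw/day. The lungs of the low dose (12.5 mg/kg-bw/day) and of the high dose (50 mg/kg-bw/day), 5 mice each, are used for the spread and for values side by side. Each of these doses was also compared with 25 mg/kg-bw/day. RNA came from random pieces of each lung. The methods give 4 vehicle mice for IP where the labels of the lung arrays number 5, and all 5 were used.

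Each array compared Cy5-labelled lung RNA with a Cy3-labelled reference RNA pooled from 11 mouse cell lines. A level below is therefore log2(Cy5/Cy3), where 1 unit is a doubling relative to that reference, and a difference is the mean of the dosed mice minus the mean of the vehicle mice on the same scale. The array holds 55681 different probes, of which 26413 could be given a gene name (20018 names). The tissue label was borne out by the lung markers. Surfactant protein C (Sftpc), made by alveolar type 2 cells, had a level of 7.86 ± 0.38 in vehicle and 8.06 ± 0.43 in dosed lungs (SD, n = 5 each). Scgb1a1, the secretoglobin of club cells, had levels of 7.54 ± 0.12 and 7.70 ± 0.10, and neither gene passed the test.

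The arrays were not equally bright, and a few lungs stood apart. The share of probes well above background was 53.0 to 85.5% in the vehicle arrays and 55.4 to 83.9% in the dosed arrays, and the highest share in both groups was that of slide 3. Each of the 5 slides held 1 lung array of every dose, always in the same column of the slide, so that dose and array column cannot be told apart. On slide 1, vehicle mouse 1 had the lowest fat cell values of its group and dosed mouse 11 the highest mesothelium values of its group. Calls that changed without slide 1 are listed at the end. Leaving out that slide was chosen after the values were seen, so a call gained without it adds no support.

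Polycyclic aromatic hydrocarbons are ligands of the aryl hydrocarbon receptor (AhR). The bound receptor enters the nucleus, pairs with ARNT and binds xenobiotic response elements near genes such as Cyp1a1 and Cyp1b1, whose enzymes oxidise the hydrocarbon. Some of the products are diol epoxides that bind DNA, and damaged DNA activates p53, which turns on genes for arrest and for cell death. The repressor encoded by Ahrr competes with AhR and closes a feedback loop.

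The promoters of the 3 AhR targets with the largest differences are shown because the results on this pathway turn on them. They are the RefSeq windows from 250 bases before to 50 after the start of the gene (GRCm38.p6), written 5′ to 3′ along the gene, with the core of the xenobiotic response element in capitals (GCGTG, or CACGC on the other strand).
Ahrr, chr13:74292282-74292581, minus strand: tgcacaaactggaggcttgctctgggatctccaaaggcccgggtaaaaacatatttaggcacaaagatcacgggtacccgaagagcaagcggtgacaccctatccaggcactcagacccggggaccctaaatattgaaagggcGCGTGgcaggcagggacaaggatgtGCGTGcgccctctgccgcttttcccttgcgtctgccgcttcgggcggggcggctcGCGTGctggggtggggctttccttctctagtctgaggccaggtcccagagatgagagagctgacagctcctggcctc
Cyp1b1, chr17:79715012-79715311, minus strand: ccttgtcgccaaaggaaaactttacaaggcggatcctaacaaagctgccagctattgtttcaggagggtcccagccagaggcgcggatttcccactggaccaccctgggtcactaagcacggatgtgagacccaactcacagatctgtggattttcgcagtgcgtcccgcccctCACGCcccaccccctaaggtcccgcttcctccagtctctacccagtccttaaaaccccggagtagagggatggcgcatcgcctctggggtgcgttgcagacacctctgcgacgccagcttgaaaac
Cyp1a1, chr9:57697363-57697662, plus strand: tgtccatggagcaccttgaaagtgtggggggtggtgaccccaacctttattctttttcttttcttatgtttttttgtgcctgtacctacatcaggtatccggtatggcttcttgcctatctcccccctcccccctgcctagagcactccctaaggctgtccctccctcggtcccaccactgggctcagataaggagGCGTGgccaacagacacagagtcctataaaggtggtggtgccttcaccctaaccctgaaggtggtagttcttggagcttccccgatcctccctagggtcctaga
The core occurred 3 times in the window of Ahrr and 1 time in each of the windows of Cyp1b1 and Cyp1a1. It occurs in 32.4% of the 32851 promoter windows of the same length, so a match describes the window and does not show that AhR binds there. The array measures no binding.

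In dosed lungs 7 probes passed both thresholds (limma, a Benjamini-Hochberg adjusted p no larger than 0.05, and a change by 1.5-fold or more), which is 0.0126% of all probes. Of these, 6 were higher (0.0108%) and 1 was lower (0.0018%) than in vehicle lungs. An unadjusted p under 0.05 was found for 3635 probes, 3.85% of all in the upward and 2.68% in the downward direction. With slide as a block, which compares arrays within a slide, 59 probes passed (0.106%), 24 higher (0.0431%) and 35 lower (0.0629%), and the 7 were among them. These counts depend on the values used: with the scanner software's log ratio 1 probe passed without and 0 with slide (limma; 5168 had an unadjusted p under 0.05 with slide), and with the authors' processed values 1 and 56. The 59 carry 42 gene names, and 16 of them have no name here. The 2 counts stand side by side because the slide term decides most calls: a gene given below only as passing "with slide" did not pass without it.

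The genes called without the slide term were Bax, Ces2b, Ddah1, Pisd-ps3 and Septin3. Each had all 5 dosed mice on 1 side of all 5 vehicle mice, which was true of 0.947% of all probes in the upward and 0.415% in the downward direction, and each had the smallest exact permutation p that the splits of 10 mice into 5 and 5 allow (two-sided, 0.00794). These genes were picked on the same lungs, so neither the separation nor that p is further support for them. Their adjusted p was 0.0381 in every case without the slide term.

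**Figure D1:**
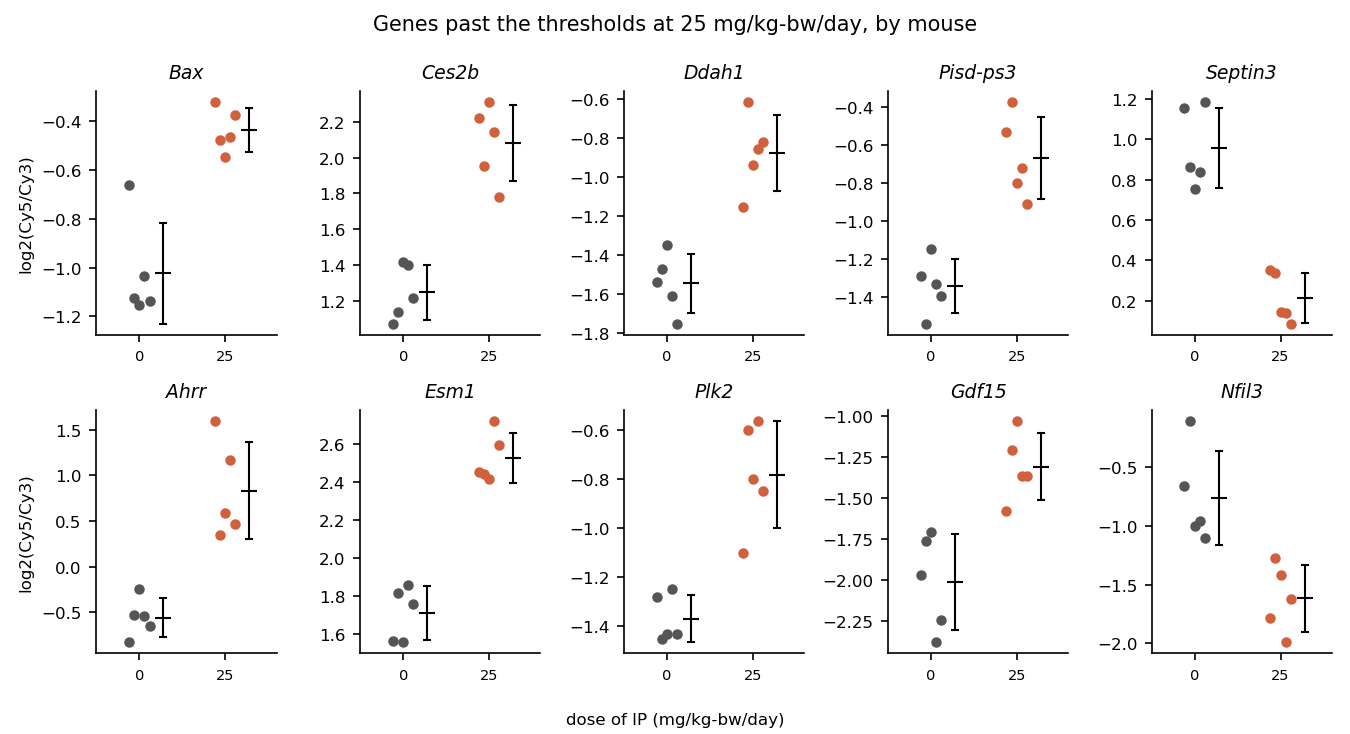
Level of 10 genes past the thresholds in each lung, as log2(Cy5/Cy3), in vehicle mice (dose 0, grey points) and in mice given 25 mg/kg-bw/day (orange points), with the mean ± SD of 5 mice beside each group. The upper row holds the genes called without a slide term and the lower row genes called only with slide as a block. In all 10 panels the groups do not overlap, beside 0.947% of all probes in the upward and 0.415% in the downward direction. The lower row is a selection. Other genes called with slide, such as Ces2c, Prdm1, Ucp1 and Thrsp, had groups that overlapped. The vehicle mouse with a Bax level of −0.66 is mouse 1.

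Among the genes of the AhR battery, which encode the enzymes of hydrocarbon oxidation and conjugation and the feedback factors of the receptor, Ahrr was the 1 gene of 12 that passed both thresholds, and it did so with slide. The background for a list, taken over the brightest probe of each named gene, is 0.185% called with slide (0.0899% higher and 0.0949% lower) and 0.015% called without it, where all 3 such genes were higher (0.015%) and none was lower (0%). The 12 genes had a median difference of −0.03, beside 0.01 for all named genes, and only Ahrr, Cyp1b1 and Cyp1a1 had differences above 0.12. The median of the list against all genes was −0.04 after loess and 0.05 after median-centring, so its direction depends on the scaling.

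The level of Ahrr was −0.83, −0.54, −0.25, −0.65 and −0.54 in vehicle mice 1 to 5 and 1.60, 0.34, 0.58, 1.17 and 0.47 in dosed mice 11 to 15. The lowest dosed mouse lay above the highest vehicle mouse, and the probe was well above background in 3 of 5 vehicle and 5 of 5 dosed lungs. The difference was 1.39 (SE 0.28), a 2.63-fold higher level, with an adjusted p of 0.0901 without and 0.0305 with the slide term. The second and dimmer probe of Ahrr had a difference of 0.25 (adjusted p with slide 0.195). Without dosed mouse 11 the difference was 1.14 in the slide fit and the adjusted p 0.0535, and without both lungs of slide 1 it was 0.0828. Ahrr was called in 4 of the 10 slide fits that leave out 1 mouse.

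Cyp1b1, an enzyme that makes diol precursors from these hydrocarbons outside the liver, had levels of −2.04, −2.48, −1.74, −1.88 and −1.76 in vehicle mice 1 to 5. In dosed mice 11 to 15 they were 0.07, −0.77, −0.57, 0.05 and −1.09. The groups did not overlap (exact permutation p = 0.00794), but the difference of 1.52 (95% interval 0.58 to 2.45) did not pass across all probes, with an adjusted p of 0.338 and, with slide, 0.112.

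Cyp1a1, the AhR target used most often as a marker of receptor activity, had levels of 4.08, 2.11, 1.95, 0.73 and 0.88 in vehicle mice 1 to 5. In dosed mice 11 to 15 they were 7.87, 4.23, 3.99, 4.37 and 1.92. The groups overlapped, because vehicle mouse 1 lay among the dosed mice and dosed mouse 15 among the vehicle mice. On each of the 5 slides the dosed lung was the higher one, by 1.19 to 3.79. The mean difference of 2.53 (95% interval 0.48 to 4.57) did not pass (adjusted p = 0.604, and 0.0852 with slide; exact permutation p = 0.0635), and it was 1.68 without dosed mouse 11.

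The other 9 genes of the battery had differences between −0.42 (Aldh3a1, an aldehyde dehydrogenase) and 0.12 (Nqo1, a quinone reductase), and none passed. Tiparp, the ADP-ribosyltransferase that represses AhR, differed by −0.03 (95% interval −0.25 to 0.18). Cyp1a2, which is mainly a liver enzyme, was well above background in 1 of 5 lungs of either group and differed by 0.03.

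Among 24 p53 targets, Bax rose without the slide term and Bax, Plk2 and Gdf15 rose with slide. The share of all named genes that rose was 0.015% without and 0.0899% with slide. Without slide, 5 of the 24 were higher and 2 lower at an unadjusted p under 0.05 (limma), beside 6.32% and 3.33% of named genes. The list had 17 genes with a positive and 7 with a negative difference and a median of 0.08, beside 0.01 for all named genes. After median-centring of the arrays in place of loess the same medians were 0.31 and 0.13, a shift of all genes by over 0.1 that makes only the difference between the list and all genes comparable between the scalings.

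Bax, which encodes the pore former of mitochondrial cell death, had levels of −0.66, −1.12, −1.15, −1.14 and −1.04 in vehicle mice 1 to 5 and −0.32, −0.48, −0.55, −0.46 and −0.37 in dosed mice 11 to 15. Vehicle mouse 1 lay nearest to the dosed mice, and the 5 dosed mice lay close together. The difference was 0.59 (SE 0.10), a level that sits at the fold threshold of 1.5, with an adjusted p of 0.0381 without and 0.00105 with slide. With slide the adjusted p stayed at or below 0.00632 in all 10 fits that leave out 1 mouse, but in 5 of them the fold fell under the threshold.

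Plk2, a kinase of the centriole cycle, differed by 0.585 (SE 0.13, adjusted p with slide 0.0183), from a highest vehicle level of −1.25 to a lowest dosed level of −1.10. Like that of Bax, the difference of Plk2 sits at the fold threshold of 1.5. Gdf15, a secreted stress hormone of the TGF-beta family, differed by 0.71 (SE 0.19, adjusted p with slide 0.0181), from a highest vehicle level of −1.71 to a lowest dosed level of −1.58. Neither gene passed without the slide term, and neither had overlapping groups. Phlda3, an inhibitor of AKT, passed the adjusted p with slide (0.0214) at a difference of 0.49, which is under the fold threshold.

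The probes of Cdkn1a, the p21 inhibitor of the cell cycle, disagreed. The brightest one had levels of −0.84, 0.27, −0.15, −0.09 and −1.01 in vehicle mice 1 to 5 and of −0.10, −0.10, −0.14, −0.47 and −0.05 in dosed mice 11 to 15, a difference of 0.19 (adjusted p with slide 0.702). A dimmer probe differed by 0.61 and passed with slide (adjusted p = 0.0181). Mdm2, the ubiquitin ligase that degrades p53, differed by 0.02 (95% interval −0.11 to 0.15) and Ccng1 by 0.10 (−0.07 to 0.28). Negative differences that did not pass were found for Perp (−0.36) and Tnfrsf10b (−0.37), both of which act in cell death. Of 20 other genes of apoptosis 15 had a positive difference, with a median of 0.08, and none passed.

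Ces2b and Ces2c, members of the carboxylesterase 2 cluster whose enzymes cleave ester and amide bonds of drugs and lipids, both rose, Ces2c only with slide. Ces2b had levels of 1.07, 1.14, 1.41, 1.21 and 1.40 in vehicle mice 1 to 5 and 2.22, 1.95, 2.31, 2.14 and 1.78 in dosed mice 11 to 15. The lowest dosed mouse was above the highest vehicle mouse, and the difference was 0.83 (SE 0.13, adjusted p = 0.0381). Ces2c differed by 0.63 (SE 0.21) and passed with slide (adjusted p = 0.0127), by 0.46 to 0.75 within each slide, but its other 2 probes, with differences of 0.31 and 0.08, did not pass. The genes of this cluster are near copies, so probes of 1 member may also bind RNA of another.

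Ddah1, which breaks down the nitric oxide synthase inhibitor asymmetric dimethylarginine, rose on both of its probes with slide. The dimmer one had levels of −1.54, −1.47, −1.35, −1.75 and −1.61 in vehicle mice 1 to 5 and −1.15, −0.61, −0.94, −0.85 and −0.82 in dosed mice 11 to 15, a difference of 0.67 (SE 0.11, adjusted p = 0.0381). The brighter one differed by 0.63, with an adjusted p of 0.112 without and 0.0220 with slide. Pisd-ps3, a transcribed pseudogene of phosphatidylserine decarboxylase whose probe may also bind RNA of the parent gene, rose by 0.67 (SE 0.11, adjusted p = 0.0381), from a highest vehicle level of −1.15 to a lowest dosed level of −0.91.

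The other increases among the 10 largest with slide were those of Esm1, Chst3, 1500011B03Rik and Prdm1. Esm1, the endothelial proteoglycan endocan, had levels of 1.56, 1.82, 1.56, 1.76 and 1.86 in vehicle mice 1 to 5 and 2.45, 2.44, 2.42, 2.72 and 2.60 in dosed mice 11 to 15. Both groups were narrow and did not overlap, and the difference was 0.82 (SE 0.16, adjusted p = 0.0939 without and 0.00830 with slide). Chst3, a chondroitin sulfotransferase, differed by 0.79 (SE 0.21, adjusted p with slide 0.0291) and the non-coding 1500011B03Rik by 1.01 (SE 0.29, adjusted p with slide 0.0388), though the other probe of 1500011B03Rik differed by 0.10. Prdm1, the repressor Blimp-1 of B and T cell differentiation, differed by 0.64 (SE 0.13, adjusted p with slide 0.0236). Vehicle mouse 5 lay at 0.85, inside the dosed range of 0.69 to 1.54, so the groups overlapped for Prdm1.

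Septin3, whose product is a septin GTPase known from neurons, was the 1 gene that fell without the slide term. The levels of the called probe were 1.15, 0.86, 0.75, 1.18 and 0.84 in vehicle mice 1 to 5 and 0.35, 0.34, 0.15, 0.14 and 0.09 in dosed mice 11 to 15. The difference was −0.74 (SE 0.12) and was negative on all 5 slides, from −1.10 to −0.52. A brighter probe for the same gene differed by −0.01 (adjusted p = 1.00), so the 2 probes disagreed.

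With slide, the largest decreases among probes with a gene name were those of Ucp1, Thrsp, Hspa1a, Wt1, Wdr92, Car14, Dnaja1, Igfbp5, Ifi211 and Nfil3. Of these, Car14, Dnaja1, Ifi211 and Nfil3 had groups that did not overlap, beside 0.415% of all probes in the downward direction. The genes were picked on the same lungs, so the separation adds no support. Nfil3, a bZIP repressor of clock output genes, had levels of −0.66, −0.11, −1.0, −1.10 and −0.96 in vehicle mice 1 to 5 and −1.78, −1.28, −1.42, −1.99 and −1.62 in dosed mice 11 to 15. It fell by 0.85 (SE 0.18, adjusted p with slide 0.00885) and was called in all 10 slide fits that leave out 1 mouse, as were Ces2b, Septin3 and Esm1. Car14, a membrane carbonic anhydrase, fell by 1.13 (SE 0.29, adjusted p with slide 0.0183), from a lowest vehicle level of 1.77 to a highest dosed level of 1.41. Ifi211, an interferon-inducible DNA-binding protein, fell by 0.86 (SE 0.23, adjusted p with slide 0.0220).

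The heat shock chaperones, which refold proteins and follow heat shock factor 1, had lower means in dosed lungs in 14 of 15 genes, with a median difference of −0.54. Of these, Hspa1a and Dnaja1 fell with slide and none passed without it, and 9 had an unadjusted p under 0.05 without slide, all lower, beside 3.33% of named genes in that direction (6.32% in the other). The promoter of Hspa1a is shown because it is the classic target of heat shock factor 1. A pair of the element's units facing each other, GAANNTTC or TTCNNGAA, is in capitals.
Hspa1a, chr17:34972107-34972406, minus strand: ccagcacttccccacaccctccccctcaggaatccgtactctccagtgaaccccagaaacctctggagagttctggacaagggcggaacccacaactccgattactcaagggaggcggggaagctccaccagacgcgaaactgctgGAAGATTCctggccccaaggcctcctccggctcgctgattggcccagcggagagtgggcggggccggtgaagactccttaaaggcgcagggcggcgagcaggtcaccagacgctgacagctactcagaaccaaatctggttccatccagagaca
The pair occurred 1 time in this window and occurs in 15.1% of all windows of that length.

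Hspa1a, the inducible Hsp70, had levels of 3.21, 3.59, 0.82, 1.39 and 1.75 in vehicle mice 1 to 5 and 0.08, 0.58, 0.84, 0.31 and 0.02 in dosed mice 11 to 15. Vehicle mice 1 and 2 were far above the rest and vehicle mouse 3 lay at the level of dosed mouse 13, so the groups touched. The difference was −1.78 (SE 0.42, adjusted p = 0.166 without and 0.0310 with slide), and the probe may also bind RNA of the near-identical Hspa1b. Dnaja1, an Hsp40 partner of Hsp70, fell by 1.00 (SE 0.27, adjusted p with slide 0.0395), from a lowest vehicle level of 0.58 to a highest dosed level of 0.55, and its dimmer probe differed by −0.38. Hsph1 (−1.19), Chordc1 (−0.64), Hsp90aa1 (−0.64) and Hspd1 (−0.59) did not pass. The mean of the list was 0.27 and 0.84 in vehicle mice 1 and 2 and −0.47, −0.43 and −0.20 in vehicle mice 3 to 5, beside −0.87 to −0.28 in dosed lungs, so the vehicle mice above the dosed range were 1, 2 and 5, and on slide 3 the dosed lung was the higher one. The 4 cold-induced genes, with Cirbp (0.52) at the top and none passing, had means of −0.38 and −0.55 in vehicle mice 1 and 2, 0.28 to 0.33 in vehicle mice 3 to 5 and 0.07 to 0.40 in dosed lungs. Their part in the heat shock result was not tested. Without slide 1 the difference of Hspa1a was −1.45 and no longer passed with slide (adjusted p = 0.0758).

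Of the genes of the circadian clock, the 5 of the activator list, with Arntl (−0.46) and Clock (−0.26), all had lower means. The list also holds the repressor Nfil3, the 1 gene of it that passed, with slide. Among the 12 repressors and outputs, Dbp (1.85), Nr1d1 (1.41) and Nr1d2 (0.96) had the largest positive differences and Per1 (−0.71) the largest negative one, and none passed. Dbp, a bZIP activator at the end of the clock, ranged from −2.98 to −0.48 in vehicle and from −0.94 to 1.81 in dosed lungs. Of 10 genes that respond to glucocorticoids 9 had lower means, with Tsc22d3 (−0.80) at the end and a median of −0.51, and none passed. The mean of this list was 0.45, 0.53 and 0.40 in vehicle mice 2 to 4 and −0.88 to −0.13 in dosed lungs. Vehicle mice 1 and 5, at −0.83 and −0.55, lay within the dosed range, and on slides 1 and 4 the dosed lung was the higher one. The hour of death is not given in the sources used here, and its part in these values was not tested.

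**Figure D2:**
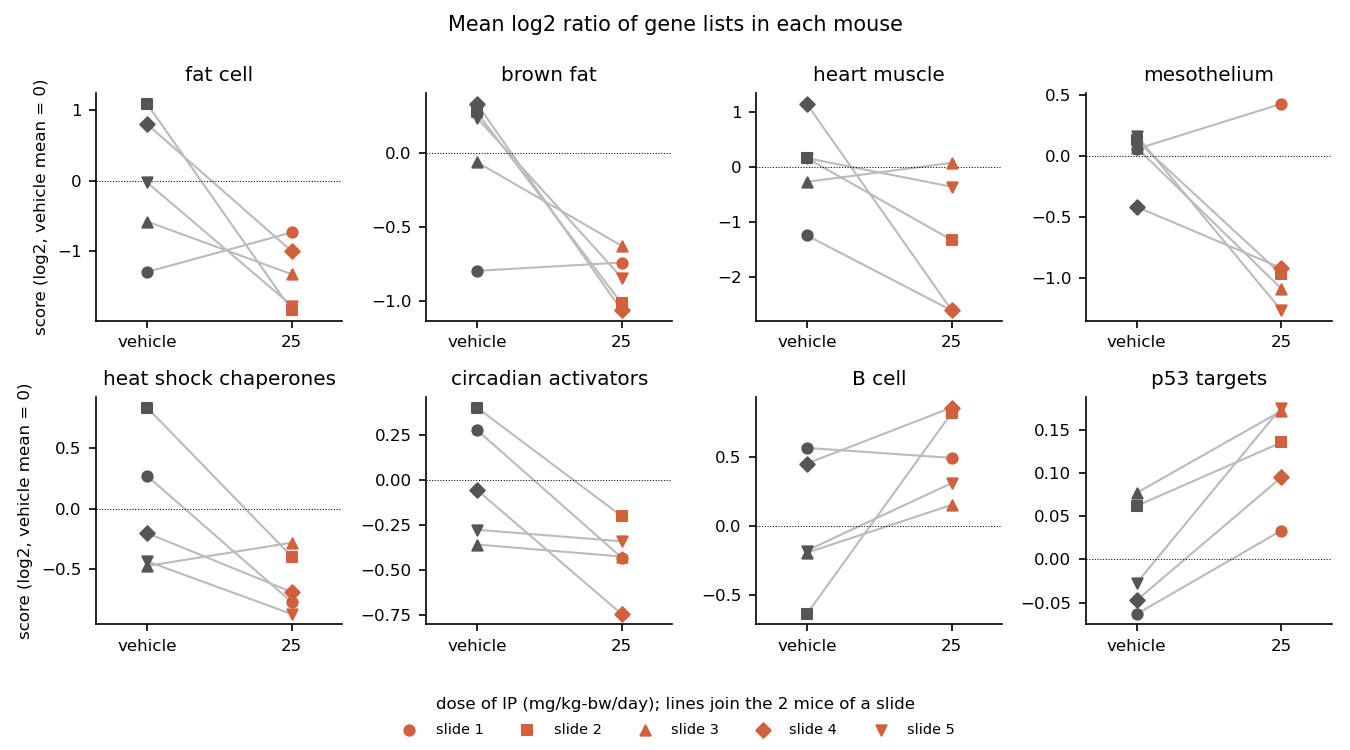
Mean log2(Cy5/Cy3) of the genes of 8 lists in each lung, set to 0 at the mean of the vehicle mice, for vehicle mice (grey) and mice given 25 mg/kg-bw/day (orange). Marker shapes stand for the 5 slides and lines join the 2 mice of a slide. The dosed lung is the lower one on 4 of 5 slides for the fat cell, brown fat and mesothelium lists, with slide 1 (circles) going the other way, and the higher one on 5 of 5 slides for the p53 targets.

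Genes of fat cells, heart muscle and mesothelium, the sheet of cells that covers the lung, had lower means in the dosed lungs. The 15 fat cell genes all did, with a median of −1.62, and so did the 9 brown fat genes (median −0.38), the 14 heart muscle genes (−1.52) and the 8 mesothelium genes (−0.70), beside 0.01 for all named genes. With slide, 1 fat cell gene (Thrsp), 1 brown fat gene (Ucp1), 1 mesothelium gene (Wt1) and no heart muscle gene passed. An array of whole tissue cannot tell fewer cells of a type from less RNA per cell. RNA came from random pieces of each lung, and the share of these tissues in each piece was not measured. Its part in these values was not tested.

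Ucp1, the uncoupling protein that defines brown fat, had levels of −0.13, 3.91, 3.88, 4.73 and 3.30 in vehicle mice 1 to 5 and 0.06, 0.16, 0.26, 0.47 and 0.17 in dosed mice 11 to 15. It was well above background in 4 of 5 vehicle lungs and in 2 of 5 dosed lungs, and vehicle mouse 1 had no more than the dosed mice. The difference was −2.92 (SE 0.54, adjusted p = 0.0683 without and 0.0181 with slide) and became −3.69 without slide 1. Cidea (−1.49) and Cox8b (−1.34), also genes of brown fat, did not pass with all mice. Without slide 1, Cidea differed by −2.10 (adjusted p = 0.0289, and 0.00321 with slide) and Cox8b by −1.72 (0.0608, and 0.0194 with slide), and the adjusted p of Ucp1 was 1.52e-07. That slide was left out after the values were seen, and its pair of mice went the other way in these 3 genes. The lower p values therefore follow from the choice and add no support.

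Thrsp, a regulator of fatty acid synthesis, had levels of 2.10, 4.73, 3.29, 4.24 and 4.77 in vehicle mice 1 to 5 and 2.33, 0.85, 1.26, 1.84 and 1.56 in dosed mice 11 to 15. It fell by 2.26 (SE 0.41, adjusted p = 0.0683 without and 0.0212 with slide), and by 2.88 without slide 1. Of the genes that define fat cells, Adipoq (adiponectin) differed by −1.80 with vehicle levels from 0.47 to 4.61, and Cfd (adipsin) by −2.72 with vehicle levels from 3.96 to 7.42. Fabp4, a fatty acid carrier that vessels and macrophages make too, differed by −2.53 (adjusted p = 0.195, and 0.0756 with slide). Among the vehicle lungs alone the levels of each of the 3 genes ranged over more than the difference, and none of the 3 passed with all mice. Without slide 1, again left out after the values were seen, Fabp4 differed by −3.25 and passed with slide (adjusted p = 0.0224). Adipoq (−2.60, adjusted p with slide 0.0544) and Cfd (−3.71, 0.0542) did not. Plin1, which coats fat droplets, then differed by −2.23 and passed without the slide term (adjusted p = 0.0156).

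Heart muscle genes were read in both groups. Myh6, the atrial and adult ventricular myosin of the mouse, had levels of 5.08, 6.15, 5.73, 6.38 and 7.10 in vehicle mice 1 to 5 and 0.52, 4.91, 5.95, 0.56 and 6.10 in dosed mice 11 to 15. Dosed mice 11 and 14 were far below the other 8 lungs, which lay between 4.91 and 7.10. The difference of −2.49 did not pass (95% interval −5.05 to 0.08). The atrial light chain Myl7 had the same 2 dosed mice at 0.24 and −0.03, with the other lungs between 2.51 and 5.19.

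Wt1, a transcription factor that marks mesothelium, had levels of −1.19, −0.83, −0.59, −0.84 and −1.64 in vehicle mice 1 to 5 and −0.83, −2.79, −2.89, −2.92 and −3.66 in dosed mice 11 to 15. Dosed mouse 11 lay among the vehicle mice and the other 4 below them. The difference was −1.60 (SE 0.42, adjusted p = 0.255 without and 0.0394 with slide). Without dosed mouse 11 it was −2.05 and passed without the slide term (adjusted p = 0.0429). That mouse lay at the vehicle level, so the lower p follows from leaving it out and adds no support. Over all fits with 1 mouse left out, the adjusted p of Wt1 reached 0.565. Lrrn4 (−1.27), Msln (−1.17) and Upk3b (−0.92), further mesothelial genes, had lower means and did not pass. Igfbp5, an insulin-like growth factor carrier, fell with slide by 0.94 (adjusted p = 0.0223), and Wdr92, a factor in dynein assembly, by 1.48 (adjusted p = 0.0367), on 1 of its 2 probes. In both genes dosed mouse 11 stood at the vehicle level, at 4.18 and 1.06, while the other dosed mice had at most 3.12 and −0.79.

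Genes of fatty acid synthesis had lower means in 9 of 10 cases (median −0.30). Elovl6, a fatty acid elongase, differed by −0.84 and passed with slide (adjusted p = 0.0490). Acaca, the acetyl-CoA carboxylase that starts the pathway, had an adjusted p of 0.0381 without slide at a difference of −0.51, which is under the fold threshold, and its groups did not overlap (0.89 to 1.10 in vehicle, 0.34 to 0.69 in dosed lungs). Fasn, the synthase itself, also differed by −0.51 (adjusted p with slide 0.0385). The fat cell list, whose 15 genes were also all lower, was not tested for its part in the result. Its score, the mean of the list in each lung, was −1.29 to 1.09 in vehicle and −1.84 to −0.73 in dosed lungs. On slide 1 that score was −1.29 in the vehicle lung and −0.73 in the dosed lung. The score of the fatty acid synthesis genes was −0.12 and −0.25 in the same lungs. On the other slides both scores were lower in the dosed lung. Each gene of the fat cell list was well above background in at least 1 lung of either group. Cpt1a, which carries fatty acids into mitochondria for oxidation, had a higher level in every dosed lung (1.47 to 1.79) than in any vehicle lung (0.61 to 1.33) and did not pass both thresholds.

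Lymphocyte genes had higher means without a call. Of 16 B cell genes 15 did, with a median of 0.63, and 16 T cell genes had a median of 0.21. Among the B cell genes, Fcrla (0.88), Ms4a1 (0.83, the CD20 antigen) and Cd79b (0.77) had adjusted p values between 0.686 and 0.825 without slide. The mean of the list was −0.64 to 0.57 in vehicle and 0.15 to 0.86 in dosed lungs. Jchain, which links secreted IgA and IgM, fell with slide by 0.64 (adjusted p = 0.0388), and the 8 plasma cell genes had a median of −0.04. The other plasma cell gene that passed with slide, Prdm1, rose by 0.64 (adjusted p = 0.0236).

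Epithelial and most immune lists held no called gene. The medians were 0.07 for 10 alveolar type 2 genes, 0.03 for 7 alveolar type 1 genes, −0.11 for 7 club cell and −0.11 for 8 ciliated cell genes, 0.19 for 8 endothelial and −0.36 for 8 fibroblast and matrix genes. They were −0.04 for 7 alveolar macrophage and −0.01 for 10 neutrophil genes, and −0.15 for 18 chemokines, −0.19 for 13 complement genes, −0.03 for 13 interferon-stimulated and 0.09 for 14 inflammasome genes. Among chemokines the widest difference was that of the neutrophil attractant Cxcl5 (−1.25, adjusted p = 0.700). The 15 NRF2 targets, which protect against oxidants, had a median of −0.10, 20 DNA repair genes one of 0.06 and 10 sterol synthesis genes one of −0.05.

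The few probes that passed between 25 and 50 mg/kg-bw/day were those of genes of cell division, and they passed only with slide. Between the 2 doses 0 probes passed without slide (limma; 1648 had an unadjusted p under 0.05) and 4 passed with slide (0.00718%), all of them higher at 50 mg/kg-bw/day. They are 2 probes of Mki67, the proliferation antigen Ki-67 (0.82 each), and 1 each of Cenpe, a kinetochore motor (0.70), and Iqgap3, a scaffold of dividing cells (0.64), with an adjusted p of 0.0436. At 25 mg/kg-bw/day Mki67 differed from vehicle by 0.07 (95% interval −0.31 to 0.45), with levels of −4.23 to −3.61 in vehicle and −4.13 to −3.71 in dosed lungs. The 30 mitosis genes had a median of 0.04 at this dose and of 0.41 at the high dose, both against the same vehicle mice, and 20 DNA replication genes had medians of 0.01 and 0.24. Iqgap3 was named after its values were seen. The comparison of the 2 doses was fitted only without and with slide, under no other scaling and with no mouse left out.

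**Figure D3:**
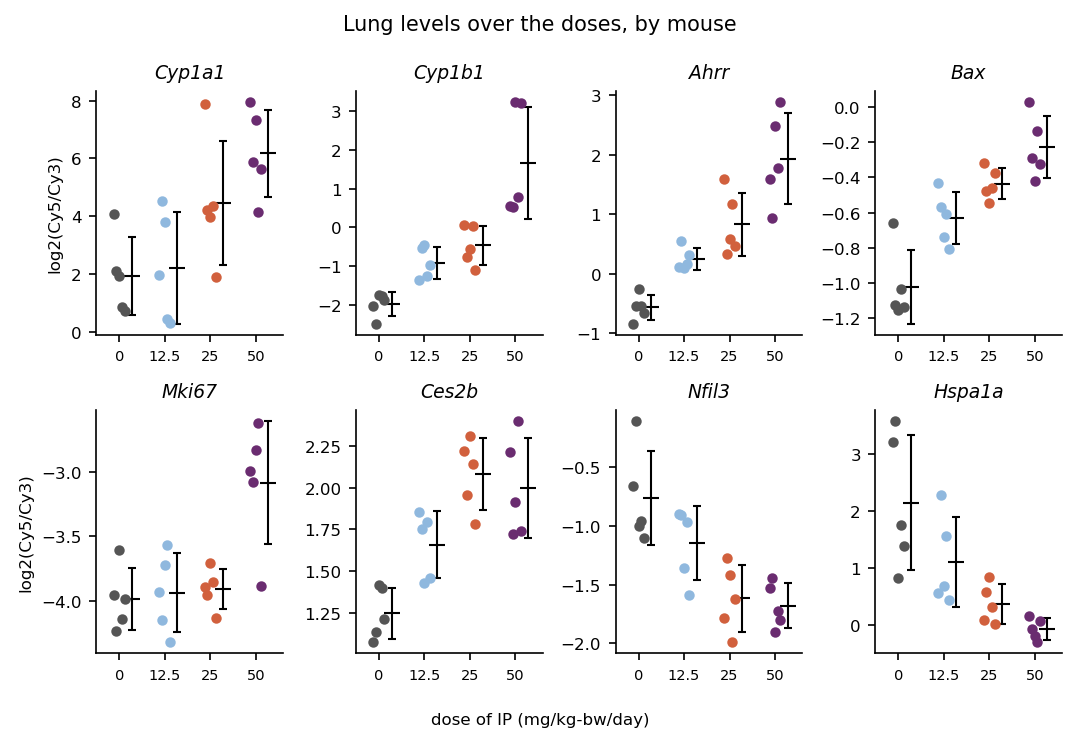
Level of 8 genes in each lung as log2(Cy5/Cy3) in vehicle mice (0) and at the 3 doses of IP in mg/kg-bw/day, with the mean ± SD of 5 mice beside each group. Mki67 lies at the vehicle level up to 25 mg/kg-bw/day and is higher in 4 of 5 mice at 50 mg/kg-bw/day, whereas Bax, Ces2b and Nfil3 have no mouse within the vehicle range at 25 mg/kg-bw/day.

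For the genes of the AhR and p53 pathways the 3 doses stood as follows, each against the same vehicle mice. From the low to the high dose the differences were 0.81, 1.39 and 2.50 for Ahrr, 1.06, 1.52 and 3.64 for Cyp1b1, and 0.27, 2.53 and 4.24 for Cyp1a1. They were 0.39, 0.59 and 0.79 for Bax, 0.45, 0.585 and 0.75 for Plk2, and 0.32, 0.71 and 0.85 for Gdf15. The step from 25 to 50 mg/kg-bw/day did not pass for any of these 6 genes, with 2.12 for Cyp1b1 (adjusted p = 0.959, and 0.217 with slide), 1.10 for Ahrr and 0.21 for Bax. Ces2b had 0.41, 0.83 and 0.75, Ddah1 0.20, 0.67 and 0.68, and Esm1 0.30, 0.82 and 0.59, and none of the 3 passed between 25 and 50 mg/kg-bw/day, where they differed by −0.08, 0.01 and −0.23. Ucp1 had −3.01, −2.92 and −3.05, with its probe well above background in 2 of 5 lungs at each dose, so that the size of these decreases is limited by the background. Between the low dose and 25 mg/kg-bw/day 0 probes passed in either fit (limma; 1355 and 3276 had an unadjusted p under 0.05).

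A stretch of chromosome 2 held several probes for long non-coding RNA that were higher in dosed lungs. It was chosen after its values were seen, and the positions are those of the array design, mm9. Of 24 such probes between chr2:127988295 and chr2:128250301, 16 carry the design's strand letter R and 8 the letter F. All 16 R probes were well above background on all 10 arrays and had higher means in dosed lungs, by 0.24 to 0.69, and with slide 8 passed the adjusted p and 3 both thresholds. The 8 F probes differed by −0.09 to 0.16 and none had an unadjusted p under 0.05. The probe called without slide (chr2:127988295-128194920, letter R) had levels of 0.02 to 0.40 in vehicle and 0.71 to 1.16 in dosed lungs, a difference of 0.66 (SE 0.11, adjusted p = 0.0381). Probes that share a transcript are not replicates of each other.

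**Figure D4:**
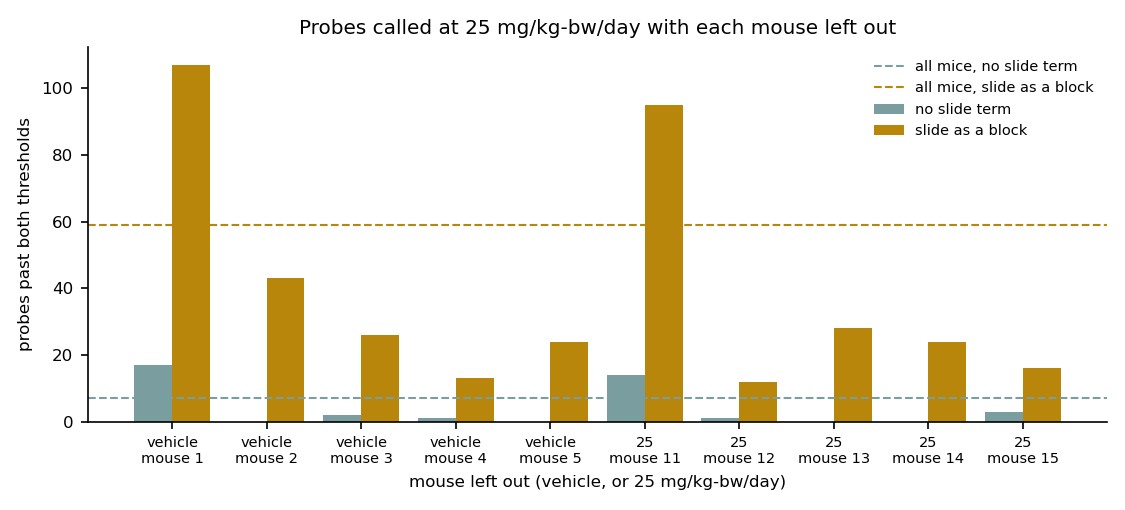
Number of probes called at 25 mg/kg-bw/day when 1 mouse is left out, without a slide term (blue-green bars) and with slide as a block (gold bars), beside the numbers with all mice (dashed lines at 7 and 59). The counts are highest without vehicle mouse 1 (17 and 107) and without dosed mouse 11 (14 and 95).

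Of 482 genes of the lists measured on all 10 arrays, 15 had groups that did not overlap, 10 of them higher and 5 lower, beside 1.7% and 0.525% of named genes. Those that were higher were Cyp1b1, Ahrr, Bax, Gdf15, Phlda3, Plk2 and Aen, and outside both pathways Cpt1a, Egfl7 and Nlrc4. Those that were lower were Dnaja1, Nfil3, Acaca, Lep and Socs3. The lists were chosen with earlier results of these data known, so these counts are no test of their members.

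The count of called probes moved with single lungs. Leaving out 1 mouse gave 0 to 17 probes without and 12 to 107 with slide, and the lowest count with slide was that without dosed mouse 12. The genes called with slide were unequal in this respect. Ces2b, Esm1, Nfil3 and Septin3 were called in all 10 of these slide fits, Ddah1 and Ces2c in 9, Pisd-ps3 in 8, and Car14, Gdf15 and Ucp1 in 6, with a highest adjusted p of 0.0780 for Car14. Plk2 and Prdm1 were called in 4, Thrsp, Hspa1a, Wdr92, Igfbp5, Ifi211 and Jchain in 3, and Wt1, Dnaja1, Chst3, Elovl6 and 1500011B03Rik in 2, and the adjusted p of these last 5 reached 0.145 (Elovl6) at most. Without slide 1 the count was 12 (3 higher) and 109 (27 higher), and without the brighter slide 3 it was 0 (limma; 3764 had an unadjusted p under 0.05) and 27. Without slide 1 and without the slide term, Ddah1, Ces2b, Septin3 and Pisd-ps3 no longer passed (adjusted p 0.0608 to 0.0960), and Plk2 (0.69, adjusted p = 0.0141), Ucp1, Thrsp, Plin1 and Cidea passed. With slide, Ahrr, Hspa1a, Chst3, Car14 and Dnaja1 no longer passed (0.0544 to 0.108), and Fabp4, Plin1, Cidea, Cox8b and Pck1 (−2.33, adjusted p = 0.0465) passed. Centring the arrays on their median in place of loess gave 0 probes without slide (limma; 1488 had an unadjusted p under 0.05) and 289 with slide, of which 234 were higher, against 24 higher of 59 after loess. The balance between increases and decreases with slide therefore depends on the scaling, while the named genes kept their direction under it, apart from Cyp1a2 and Tiparp, whose differences were near 0.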

How the data were processed

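RNA of 20 lungs was measured on dual-colour arrays, 5 per dose. The authors scanned the arrays and extracted the spots with Agilent Feature Extraction 10.7.3.1, which per the file headers gives each spot's median intensity in both channels before correction. The deposited log2 ratios are the authors' LOWESS-normalized values, used as an alternative (r of 0.996 to 0.999 with those computed here). The log10 ratio of that software, deposited in the same files, was another. Of the value table, 38 columns of other samples were not used.

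Log2(Cy5/Cy3) of the median signals, without background subtraction, was normalized by loess within each array, without control spots. It was then averaged per probe without outlier spots (R 4.3.3, limma 3.58.1, and the package data.table in version 1.17.8). In place of the study's MAANOVA, limma fitted the 4 dose groups together without a slide term (two-sided), with Benjamini-Hochberg adjustment over 55681 probes, and again with slide as a block. Permutation tests used all splits of the 10 mice into 5 and 5. The number of arrays and the share of probes above background limit the precision. Accessions were named through the RefSeq table of GRCm38.p6. The labels call the mice separate animals.

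Named genes are those called without slide, the 10 largest increases and decreases called with slide, and genes of 40 lists (485 of 495 entries measured, the brightest probe of each gene, no set test). The members and lists were chosen with earlier results of these data known. Alternatives were other background correction, normalization, filters, weights, thresholds and fits, and each mouse left out.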

Additional observations from a re-analysis of the deposited data

Results flagged for a closer look

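Dixon's test for an extreme sample marked 13 of 180 groups of 5 mice, where chance marks about 1 in 20. Dosed mouse 11 was the high extreme for Wdr92 (1.06, next mouse −0.79), Igfbp5 (4.18, next 3.12), Cidea (3.50, next 2.31) and the mesothelium score (0.43, next −0.92). Vehicle mouse 1 was the high extreme for Bax (−0.66, next −1.04) and the low extreme for the score of PPAR and fatty acid oxidation genes (−0.52, next 0.07). Vehicle mouse 5 was the high extreme for Prdm1 (0.85, next 0.44) and the low extreme for the mesothelium score (−0.42, next 0.06), and vehicle mouse 3 the high extreme for the mitosis score (0.39, next −0.05). Among the other dosed mice, mouse 13 was low for Chst3 (2.93, next 3.35), mouse 12 low for Ifi211 (0.37, next 0.95), and mouse 14 low for Cdkn1a (−0.47, next −0.14) and high for the alveolar macrophage score (0.69, next −0.03).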

How the results depend on the processing

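The count of 7 probes called at 25 mg/kg-bw/day (6 higher) was also 7 with normexp, with Aquantile, with outlier spots kept, with dim probes left out and with gene names in place of probes, though only 5 were higher with normexp and 4 with gene names. It was 5 with a trended and robust fit and 10 with array weights. It fell to 1 under the scanner software's log ratio and to 1 under the authors' processed values, and became 0 with median-centring, 59 with slide as a block, 2 with only D0 and D2 in the fit, 26 with the slide term added to that, 15 at an adjusted p of 0.1, 16 at any fold change and 1298 at an unadjusted p under 0.05 and 1.2-fold. With each mouse left out the count was 0 to 17. It was 0 without vehicle mouse 2 or 5 or dosed mouse 13 or 14, 1 without vehicle mouse 4 or dosed mouse 12, 2 without vehicle mouse 3, 3 without dosed mouse 15, 14 without dosed mouse 11 and 17 without vehicle mouse 1 (limma; 3205 to 3940 probes had an unadjusted p under 0.05 where the count was 0). With slide and each mouse left out it was 12 to 107, with 12 without dosed mouse 12, 13 without vehicle mouse 4, 16 without dosed mouse 15, 24 without vehicle mouse 5 or dosed mouse 14, 43 without vehicle mouse 2, 26 without vehicle mouse 3, 28 without dosed mouse 13, 95 without dosed mouse 11 and 107 without vehicle mouse 1. Chosen after seeing the data were slide with normexp (49), with median-centring (289), with dim probes left out (69), with the scanner software's log ratio (0, with 5168 at an unadjusted p under 0.05) and with the authors' processed values (56), and the fits without slide 1 (12, and 109 with slide) and without slide 3 (0, with 3764 at an unadjusted p under 0.05, and 27 with slide). Between 25 and 50 mg/kg-bw/day 0 probes became 4 with slide. The cause of these shifts was not tested. Small differences changed sign. Median-centring, with or without slide, gave −0.059 for Cyp1a2 and 0.21 for Tiparp, the scanner software's log ratio gave 0.0042 for Tiparp, the fits without slide 1 gave −0.017 for Cyp1a2, and those without slide 3 gave −8e-04 for Mdm2. Over all fits with 1 mouse left out the differences ran from −0.019 to 0.078 for Cyp1a2, −0.090 to 0.043 for Tiparp, −0.012 to 0.057 for Mdm2, −0.35 to 0.12 for Per2 and −0.038 to 0.19 for Mki67. No paired analysis was possible because the vehicle and dosed mice share no replicate number, and the comparison within slides is that with slide as a block.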
